A study of Mus musculus with 36 samples.

Results

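The genes described here encode G protein-gated inward rectifier (GIRK) subunits (Kcnj3, Kcnj6 and Kcnj9) and two-pore potassium channels (Kcnk1, Kcnk2, Kcnk3, Kcnk9 and Kcnk10), 8 genes of the 18193 that the array names by a probe set with 1 symbol. They were chosen by name and on measured values, namely the -/- minus +/+ changes of each line and the cerebellum minus forebrain difference of the +/+ arrays, and every probe set annotated to them alone was taken. For the members those contrasts are given as a description, without p-values, and where a count past the threshold is printed it stands beside the share of all probe sets and nothing is read from it. Kcnk9 has no probe set in the table used here and was not analysed. The other 7 genes have 21 probe sets, of which 16 passed a filter on low signal in cerebellum, 12 in forebrain and 15 over both tissues, and 5 passed nowhere.

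Total RNA of mouse brain was measured on 36 one-colour arrays, in 12 groups of 3. They are -/- and +/+ mice of the lines stg, tg and lh, each in cerebellum and in forebrain. These abbreviations are the usual names of stargazer, tottering and lethargic, whose mutated genes Cacng2, Cacna1a and Cacnb4 encode a TARP (once classed as a calcium channel gamma subunit), the pore of P/Q-type calcium channels and a calcium channel beta subunit. The +/+ arrays of each line are its controls. Strain, age, sex, and whether an array is 1 animal or a pool are not given in the labels used here.

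GIRK channels open when a receptor of the Gi/o class releases G protein beta-gamma dimers, and the potassium they let out makes neurons less excitable. They are tetramers: Kcnj3 encodes GIRK1, Kcnj6 encodes GIRK2 and Kcnj9 encodes GIRK3, and GIRK1 needs a partner subunit to reach the cell surface. Two-pore channels carry the background potassium current that sets the resting potential: Kcnk1 encodes TWIK1, Kcnk2 encodes TREK1 and Kcnk10 encodes TREK2, both opened by stretch and lipids, and Kcnk3 encodes the acid-sensitive TASK1. Cerebellar granule cells are well known for GIRK currents and for a resting potassium current carried by two-pore channels.

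The promoters of the 3 genes whose main probe sets lay farthest from 0 in a cerebellum genotype contrast are shown because, at the starts printed, their sequences differ in composition; each runs from 250 bases before to 50 bases after a RefSeq start in GRCm38.p6. Capitals mark matches, on either strand, to TATAAA, to the GC box GGGCGG or to TGACG, the core of a cyclic AMP response element.
Kcnj3, chr2:55435720-55436019, plus strand: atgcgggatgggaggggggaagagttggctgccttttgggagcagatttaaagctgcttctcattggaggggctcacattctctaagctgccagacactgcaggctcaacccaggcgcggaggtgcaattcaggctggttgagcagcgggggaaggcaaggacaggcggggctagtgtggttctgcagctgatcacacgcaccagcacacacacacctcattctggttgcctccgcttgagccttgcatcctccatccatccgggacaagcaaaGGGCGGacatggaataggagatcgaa
Kcnj9, chr1:172329273-172329572, minus strand: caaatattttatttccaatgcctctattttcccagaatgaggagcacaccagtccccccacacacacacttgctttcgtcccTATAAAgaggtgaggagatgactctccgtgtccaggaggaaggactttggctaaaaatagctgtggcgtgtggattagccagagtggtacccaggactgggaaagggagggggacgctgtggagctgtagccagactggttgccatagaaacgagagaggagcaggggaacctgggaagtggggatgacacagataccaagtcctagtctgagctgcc
Kcnk2, chr1:189343658-189343957, minus strand: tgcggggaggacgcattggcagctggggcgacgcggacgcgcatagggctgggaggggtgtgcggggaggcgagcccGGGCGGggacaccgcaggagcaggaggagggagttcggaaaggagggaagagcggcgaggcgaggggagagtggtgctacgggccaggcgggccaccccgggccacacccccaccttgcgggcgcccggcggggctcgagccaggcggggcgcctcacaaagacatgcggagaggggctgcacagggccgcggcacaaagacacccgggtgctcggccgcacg
The printed Kcnk2 promoter has 74.7% G and C and 33 CpG sites, the Kcnj3 promoter 57.7% and 10 sites, and the Kcnj9 promoter 52.3% and 5 sites. Over the 32851 promoters of the table the median was 52.7% and 7 sites. A GC box occurs in 35.7% of these promoters and is present in those printed for Kcnk2 and Kcnj3. TATAAA occurs in 13.6% and is present in that of Kcnj9, while TGACG, in 20.8% of all promoters, is in none of the 3 printed here. RefSeq gives Kcnk2 4 starts, and the one printed is the richest in G and C. The other 3 have no GC box, with 68.7%, 54.7% and 43% G and C and 33, 3 and 6 CpG sites. The matches describe letters in these windows and no factor binding was measured.

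Each array has the same trimmed mean signal, and array medians span 0.33 on the log2 scale. Cacng2, the gene mutated in stg, had a mean signal of 25 ± 19.8 in stg-/- cerebellum and 480.3 ± 8.85 in stg+/+ cerebellum (SD, n = 3 each). Cacnb4 fell in lh forebrain (log2 difference -1.08, limma adjusted p = 0.0285) and had -0.61 in lh cerebellum (adjusted p = 0.0814). Cacna1a did not pass in tg, whose mutation changes 1 amino acid, so its transcript level is no check of the labels. On 3 forebrain arrays, stg+/+ replicates 1 and 2 and lh+/+ replicate 3, the pituitary hormone genes Gh and Prl were high. In -/- arrays all 8 measured granule cell markers and all 6 measured Purkinje cell markers were higher in cerebellum than in forebrain, and all 5 forebrain excitatory neuron markers were lower.

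Kcnk2 was higher in the stg mutant in cerebellum. Its 1 probe set, 1449158_at, had signals of 305, 292 and 254 in stg-/- cerebellum, against 102, 120 and 107 in stg+/+ cerebellum. The groups do not overlap, and the lowest stg-/- array lay above every one of the other 15 cerebellum arrays. The log2 difference was 1.35 (SE 0.13), 2.55-fold, on the log2(signal + 2.98) scale used for all differences here. In these bulk samples, more or fewer cells of a type and a different amount of RNA per cell cannot be told apart.

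In the other lines the same probe set moved little. It had 142, 143 and 135 in tg-/- cerebellum, against 122, 107 and 117 in tg+/+ cerebellum, without overlap (log2 difference 0.28, SE 0.13). It had 101, 120 and 104 in lh-/- cerebellum, against 107, 94.2 and 93.2 in lh+/+ cerebellum, with overlap (0.14, SE 0.13). In forebrain all 18 arrays lay between 327 and 476, and the log2 differences were -0.20 in stg, -0.01 in tg and 0.14 in lh (SE 0.12 each). Without the 3 arrays with high Gh and Prl the stg forebrain difference was 0.13. The order of the cerebellum means was stg-/- (283.5 ± 26.0), tg-/- (140.2 ± 4.1), tg+/+ (115.0 ± 7.8), stg+/+ (109.4 ± 9.4), lh-/- (108.3 ± 9.97) and lh+/+ (98.2 ± 7.7; SD, n = 3 each). Among the 3 +/+ groups Kcnk2 did not pass the F test (adjusted p = 0.70 in cerebellum and 0.95 in forebrain).

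Kcnj3, the GIRK1 subunit, was lower in stg cerebellum by 2 of its 3 kept probe sets. The main probe set, 1455374_at, had 338, 273 and 284 in stg-/- cerebellum, against 620, 455 and 521 in stg+/+ cerebellum. The stg-/- arrays were the 3 lowest of the 18 cerebellum arrays. The log2 difference was -0.82 (SE 0.12).

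A further Kcnj3 probe set, 1444025_at, had 121, 132 and 125 in stg-/- cerebellum, against 204, 218 and 225 in stg+/+ cerebellum, again without overlap (-0.76, SE 0.18). The probe set 1421468_at did not show the difference. It had 148, 170 and 145 in stg-/- cerebellum, against 183, 195 and 142 in stg+/+ cerebellum (-0.15, SE 0.16). The fourth Kcnj3 probe set, 1444336_at, lay between 2.5 and 36.8 on all arrays and passed no filter. What part of the transcript each probe set reads is not given in the files.

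**Figure D1:**
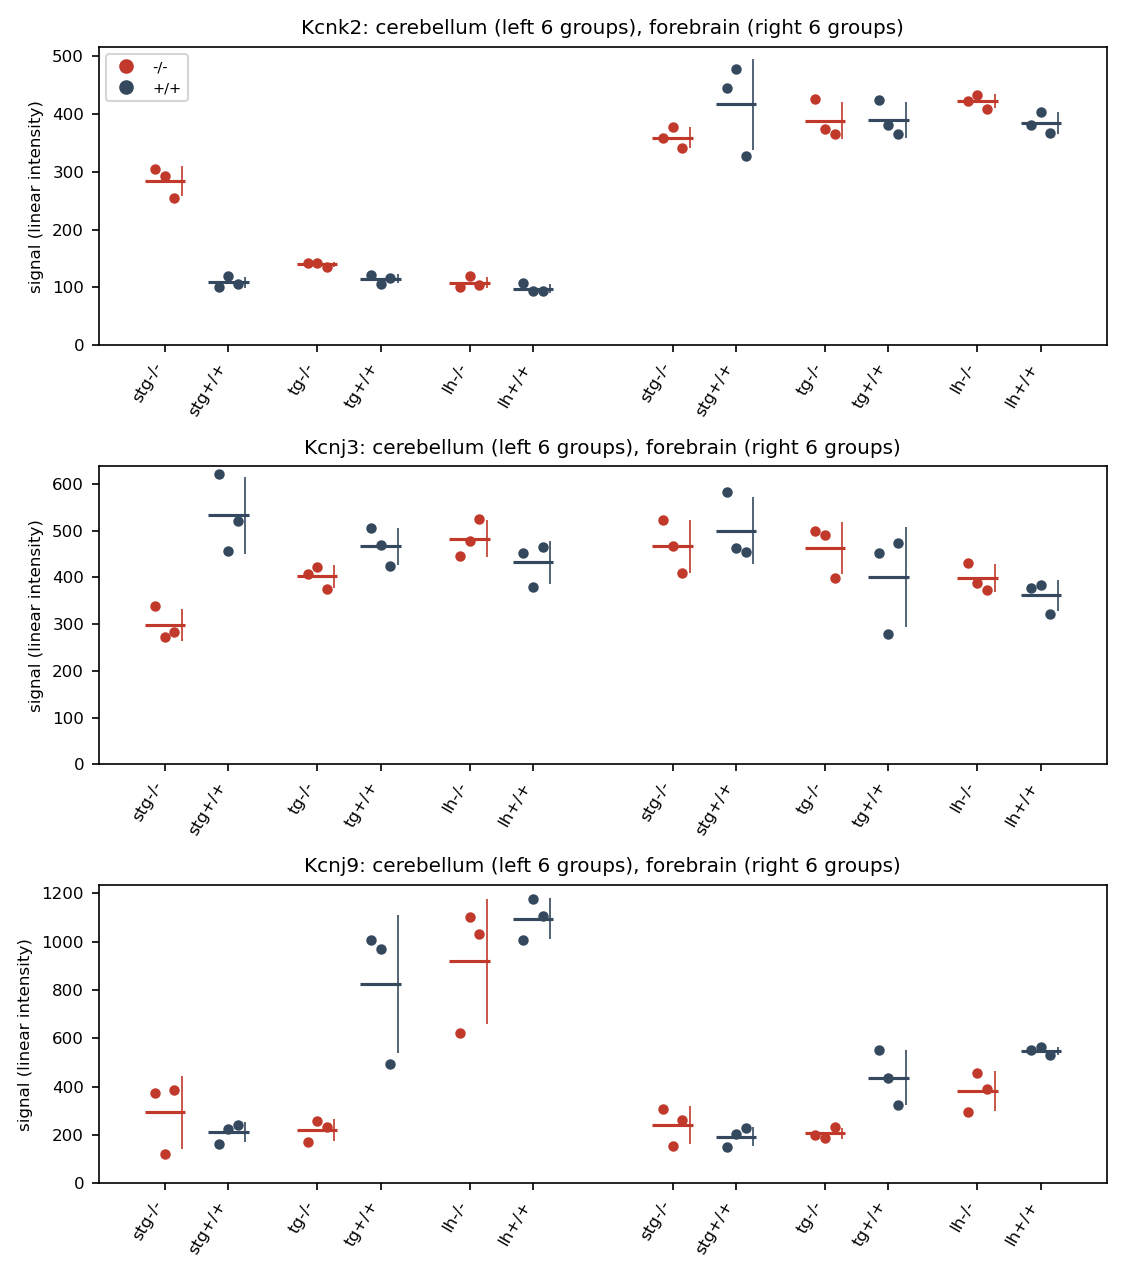
Signal (linear intensity) of the main probe sets of Kcnk2, Kcnj3 and Kcnj9 on each array, with -/- groups in red and +/+ groups in blue. Points are arrays, horizontal bars are means and vertical lines are ± 1 SD (n = 3 per group). In cerebellum the stg-/- arrays are the 3 highest for Kcnk2 and the 3 lowest for Kcnj3, and Kcnj9 is low in both stg groups and in tg-/-.

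In tg and lh cerebellum the Kcnj3 groups lay closer together. The main probe set averaged 401.8 ± 24.6 in tg-/- cerebellum and 466.3 ± 40.2 in tg+/+ cerebellum (log2 difference -0.21, SE 0.12). The tg groups do not overlap, with the highest tg-/- array at 423 and the lowest tg+/+ array at 425. The same probe set averaged 482.6 ± 39.1 in lh-/- cerebellum and 432.1 ± 45.8 in lh+/+ cerebellum, with overlap (0.16, SE 0.12; SD, n = 3 each). Kcnj3 lies within 10 Mb of Cacnb4, the gene mutated in lh, and Kcnk9, not analysed here, within 10 Mb of Cacng2, the gene mutated in stg. In forebrain the differences of the main probe set were -0.10 in stg, 0.24 in tg and 0.14 in lh (SE 0.17 each), with overlap in each line. Without the 3 arrays with high Gh and Prl the stg difference was 0.03. The lowest forebrain array, 278 in tg+/+, lay inside the stg-/- cerebellum range.

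Cell type markers in stg cerebellum are given beside the Kcnk2 and Kcnj3 values. Of 8 granule cell markers none rose and 2 fell, Gabra6 (log2 difference -0.65, adjusted p = 0.000109) and Neurod1 (-0.45, adjusted p = 0.00489). The summed signal of the 8 ranged between 28199 and 29904 in stg-/- and between 30291 and 35378 in stg+/+. Of 7 astrocyte markers Gfap rose (0.93, adjusted p = 0.0283), with sums of 12655 to 13926 in stg-/- and 11996 to 12264 in stg+/+. Of 6 Purkinje cell markers none passed, with sums of 26918 to 31228 in stg-/- and 21326 to 27503 in stg+/+. Of 5 thalamic markers, which the cerebellum also expresses, none rose and 1 fell, Ntng1. Their sums lay the other way, at 3359 to 4174 in stg-/- and 3152 to 3304 in stg+/+. The part of these shifts in the Kcnk2 and Kcnj3 values was not tested.

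Kcnj9, the GIRK3 subunit, was lower in tg-/- than in tg+/+ cerebellum, and its level also differed between the control groups. The main probe set, 1450712_at, had 173, 260 and 234 in tg-/- cerebellum, against 1007, 968 and 496 in tg+/+ cerebellum. The groups do not overlap, and tg+/+ replicate 3 is well below the other two. The log2 difference was -1.83 (SE 0.35).

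Some sums of cell type markers in tg cerebellum stood apart too. Of 8 granule cell markers none rose and Gabra6 fell (log2 difference -0.50, adjusted p = 0.00371), as it also did in stg and in lh (-0.42, adjusted p = 0.0324). The summed signal of the 8 ranged between 32846 and 35145 in tg-/- and between 34368 and 36575 in tg+/+, with overlap. No astrocyte, microglia or thalamic marker passed, but their sums do not overlap. By main probe set, 6 of 7 astrocyte, 5 of 5 microglia and 2 of 5 thalamic markers were higher in tg-/-. Astrocyte sums were 12035 to 13749 in tg-/- and 11282 to 11645 in tg+/+, microglia sums 1122 to 1348 in tg-/- and 900 to 1030 in tg+/+, and thalamic sums 2259 to 2792 in tg-/- and 2935 to 3450 in tg+/+. In lh cerebellum sums stood apart as well, given here with lh-/- against lh+/+. Granule cell sums were 28802 to 30009 against 33583 to 36246, and astrocyte sums 12356 to 12971 against 9614 to 11433. Microglia sums were 1058 to 1080 against 822 to 888, and thalamic sums 1912 to 2366 against 3110 to 3843. The part of such shifts in the Kcnj9 values was not tested.

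In stg cerebellum the same probe set was low in both genotypes, with 373, 120 and 387 in stg-/- and 164, 226 and 243 in stg+/+ (log2 difference 0.31, SE 0.35). In lh cerebellum it was high in both, with 624, 1102 and 1031 in lh-/- and 1005, 1175 and 1106 in lh+/+ (-0.29, SE 0.35). The 9 arrays of stg-/-, stg+/+ and tg-/- all lay at or below 387, and the 9 of tg+/+, lh-/- and lh+/+ all at or above 496. The order of the means was lh+/+ (1095 ± 85.8), lh-/- (919 ± 258), tg+/+ (824 ± 285), stg-/- (293.5 ± 150.2), tg-/- (222.0 ± 44.5) and stg+/+ (211.0 ± 41.3; SD, n = 3 each). Within the upper 3 and within the lower 3 neighbouring groups overlap.

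The difference between control groups was not itself used to choose the genes and was tested. In both tissues the test is not independent of that choice, because the same +/+ arrays enter the contrasts that chose the genes. Among the 3 +/+ cerebellum groups, Kcnj9 passed the moderated F test by 1450712_at (adjusted p = 0.00241) and by 1426115_a_at (adjusted p = 0.00844). Over all probe sets 0.881% passed this test in cerebellum, and 3 of the 16 members' probe sets did. By 1450712_at, stg+/+ minus lh+/+ was -2.38 (SE 0.35, adjusted p = 0.00204), a comparison that shares no array with the tg contrast and in which 0.496% of all probe sets passed. The difference tg+/+ minus stg+/+ was 1.90 (SE 0.35, adjusted p = 0.0239), where 0.200% passed, and tg+/+ minus lh+/+ was -0.48 (SE 0.35, adjusted p = 0.733), where 0.618% passed. Both of these comparisons and the F test share the tg+/+ arrays with the tg contrast.

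In forebrain Kcnj9 by 1450712_at, the probe set of all Kcnj9 values in this paragraph, had lower signal in the lh and tg+/+ groups than in cerebellum. The order of the means was lh+/+ (548.6), tg+/+ (437.5), lh-/- (382.5), stg-/- (241.4), tg-/- (207.5) and stg+/+ (193.8), and the lh-/- and stg-/- arrays overlap. It had 200, 189 and 233 in tg-/- forebrain, against 552, 436 and 325 in tg+/+ forebrain, without overlap (log2 difference -1.04, SE 0.23). It had 307, 154 and 263 in stg-/-, against 151, 203 and 228 in stg+/+ (0.28, SE 0.23). It had 297, 458 and 393 in lh-/-, against 553, 564 and 529 in lh+/+, also without overlap (-0.54, SE 0.23). Among the 3 +/+ forebrain groups 1450712_at passed the F test (adjusted p = 0.0063), as 1 of 12 members' probe sets where 0.414% of all passed. The difference stg+/+ minus lh+/+ was -1.51 (SE 0.23, adjusted p = 0.00542), where 0.207% of all probe sets passed. The F test call was lost without the 3 arrays with pituitary transcripts, 2 of which are stg+/+ (adjusted p = 0.567, with stg+/+ minus lh+/+ at -1.28), and without stg+/+ replicate 1 alone (adjusted p = 0.0533). Without those 3 arrays the -/- minus +/+ difference was 0.03 in stg forebrain and -0.56 in lh forebrain.

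The Kcnj9 probe sets disagreed. The probe set 1426115_a_at had 84.6, 60.5 and 35.6 in tg-/- cerebellum, against 174, 153 and 130 in tg+/+ cerebellum (log2 difference -1.37, SE 0.33), and stg+/+ minus lh+/+ was -1.94 (SE 0.33, adjusted p = 0.00861). The probe set 1428602_at had 217, 188 and 176 in tg-/- cerebellum, against 242, 182 and 213 in tg+/+ cerebellum (-0.13, SE 0.15). It did not pass the F test among +/+ groups (adjusted p = 0.826), and its signals over all cerebellum arrays stayed between 137 and 252. The fourth, 1433029_at, lay between 1.7 and 30.7 and passed no filter. So in cerebellum 2 of the 3 kept probe sets show the difference between groups and 1 does not. In forebrain 1426115_a_at averaged 65.8 ± 2.5 in tg-/- against 144.6 ± 39.0 in tg+/+. In lh-/- it averaged 140.7 ± 26.2 against 138.8 ± 4.9 in lh+/+. There 1428602_at averaged 195.0 ± 25.7 in tg-/- against 151.6 ± 24.7 in tg+/+. In lh-/- it averaged 127.7 ± 16.8 against 138.2 ± 14.5 in lh+/+, with overlap (SD, n = 3 each).

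**Figure D2:**
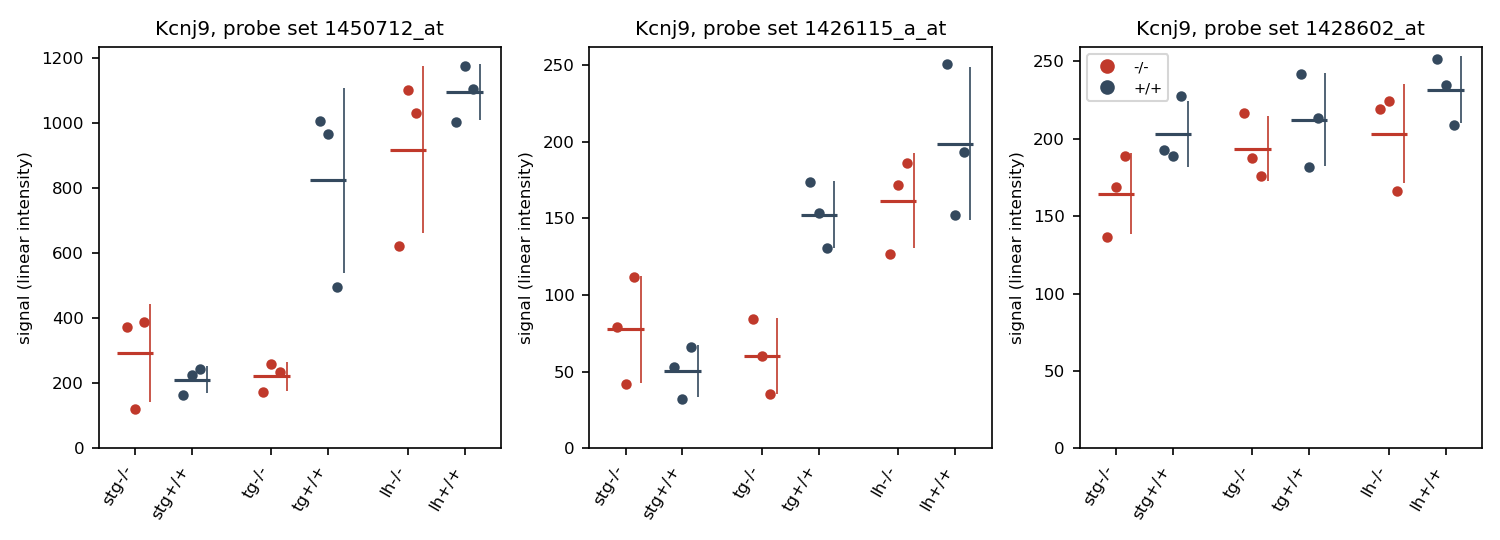
Signal (linear intensity) of the 3 kept Kcnj9 probe sets on the 18 cerebellum arrays, with -/- groups in red left of +/+ groups in blue. Points are arrays, horizontal bars are means and vertical lines are ± 1 SD (n = 3 per group). The first and second panels separate both stg groups and tg-/- from the other groups, and the third panel, between 137 and 252, does not.

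Genes around Kcnj9 on chromosome 1 were looked up for the same control difference. Of 63 kept probe sets of 39 genes within 2 Mb on either side, 6 (9.52%) passed the F test among +/+ groups in cerebellum, against 0.881% of all probe sets. They belong to Adamts4, Copa, Mndal, Pex19 and Usf1, with adjusted p between 0.00104 and 0.0375. In forebrain 1 of 65 did, of Adamts4. In the tg contrast of cerebellum 1 of the 63 passed, of Copa, a coatomer subunit of Golgi transport (log2 difference 0.48, adjusted p = 0.0370). In the stg contrast 1 of the 63 passed as well, of Mndal, an interferon-inducible gene (1.61, adjusted p = 0.0310). Neighbours share a chromosome region and are not independent of each other. Beside Kcnj3, 1 of 4 neighbours passed in stg cerebellum: Galnt13, a sugar transferase of the Golgi, fell by both of its called probe sets (-1.09 each). Beside Kcnk2, 1 of 14 did: Smyd2, a lysine methyltransferase, rose (0.44, adjusted p = 0.0367).

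Kcnj6, the GIRK2 subunit, had low signal. In forebrain its main probe set, 1425044_at, had 34.7, 33.4 and 43.0 in stg-/-, against 53.7, 64.0 and 75.3 in stg+/+ (log2 difference -0.75, SE 0.23). It had 64.4, 83.6 and 83.2 in lh-/- forebrain, against 46.0, 28.0 and 50.6 in lh+/+ forebrain (0.88, SE 0.23). In neither line do the groups overlap, and the directions are opposite. It had 39.6, 53.7 and 47.2 in tg-/- forebrain, against 47.2, 62.8 and 49.4 in tg+/+ forebrain (-0.17, SE 0.23). Without the 3 forebrain arrays with high Gh and Prl, the log2 difference was -0.98 in stg, with 1 stg+/+ array left, and 1.03 in lh, with 2 lh+/+ arrays left. The 3' to 5' difference of Actb, a sign of RNA quality, also stood apart in stg forebrain, at 0.685 to 0.792 in stg-/- and 0.836 to 1.14 in stg+/+. It stood apart in lh forebrain in the same direction, at 0.835 to 0.875 in lh-/- and 0.882 to 0.911 in lh+/+, while Kcnj6 was higher in lh-/- and lower in stg-/-. Its part was not tested. In cerebellum the Kcnj6 signals of all groups overlapped, between 37.8 and 102, and 3 of its 5 probe sets passed no filter.

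Kcnk1, Kcnk3 and Kcnk10 had smaller genotype differences in cerebellum by their main probe sets. Kcnk1, with the highest signal of the set, had 1904, 2061 and 1893 in stg-/- cerebellum, against 2421, 1798 and 2023 in stg+/+ cerebellum, and its log2 differences in the 3 lines were between -0.19 and -0.08 in cerebellum. Its other probe set, 1455896_a_at, differed among the +/+ cerebellum groups (adjusted p = 0.0391), with 763, 645 and 711 in stg+/+, against 1089, 866 and 945 in lh+/+ (-0.45, SE 0.10, adjusted p = 0.0476). That call was lost in 8 of 9 fits that leave out 1 array, with adjusted p up to 0.225. Kcnk1 is on chromosome 8, as is Cacna1a, and not within 10 Mb of it.

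Kcnk3 had 171, 209 and 181 in stg-/- cerebellum, against 258, 271 and 219 in stg+/+ cerebellum, by 1425341_at (log2 difference -0.41, SE 0.18). The same probe set had 229, 248 and 218 in lh-/- cerebellum, against 321, 283 and 284 in lh+/+ cerebellum (-0.35, SE 0.18). Both pairs of groups stand apart. The dimmest Kcnk3 probe set kept in cerebellum, 1426058_a_at, gave -1.41 in stg (SE 0.59), -0.99 in tg and -0.69 in lh. The remaining one, 1425342_a_at, gave -0.25 in stg, -0.01 in tg and -0.96 in lh. Kcnk10 had 225, 168 and 276 in stg-/- cerebellum, against 257, 291 and 298 in stg+/+ cerebellum, by 1438088_at (-0.36, SE 0.16), with overlap. Its other probe set, 1431613_a_at, gave -0.40 in stg, -0.29 in tg and -0.68 in lh cerebellum.

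Over the whole set, 3 of 16 kept probe sets passed adjusted p 0.05 in stg cerebellum, Kcnk2 higher and Kcnj3 lower by 2 probe sets, where 1.30% of all probe sets passed. In tg cerebellum 1 of 16 passed, Kcnj9, where 0.574% of all passed, and in lh cerebellum none of 16, where 0.155% passed. In forebrain none of 12 passed in stg (0.0111% of all), tg (0.189%) or lh (0.0148%). These are the contrasts that chose the genes, so the counts only describe the choice. Without 1 array of the line the count was 2 in stg cerebellum and 0 to 1 in tg cerebellum. The -/- and +/+ arrays did not overlap for 7 of 16 probe sets in stg cerebellum (15.6% of all), 5 in tg (14.0%) and 5 in lh (12.7%), and for 2 of 12 in stg forebrain (7.45%), 2 in tg (9.70%) and 3 in lh (10.7%). The members' median log2 differences in cerebellum were -0.20 in stg, -0.20 in tg and -0.23 in lh, against 0.01, -0.01 and 0.02 over all probe sets. In forebrain they were 0.05, -0.01 and 0.01, against 0.00, 0.00 and 0.01. The members' forebrain differences ranged from -0.84 to 0.28 in stg, from -1.06 to 0.40 in tg and from -0.54 to 0.88 in lh.

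**Figure D3:**
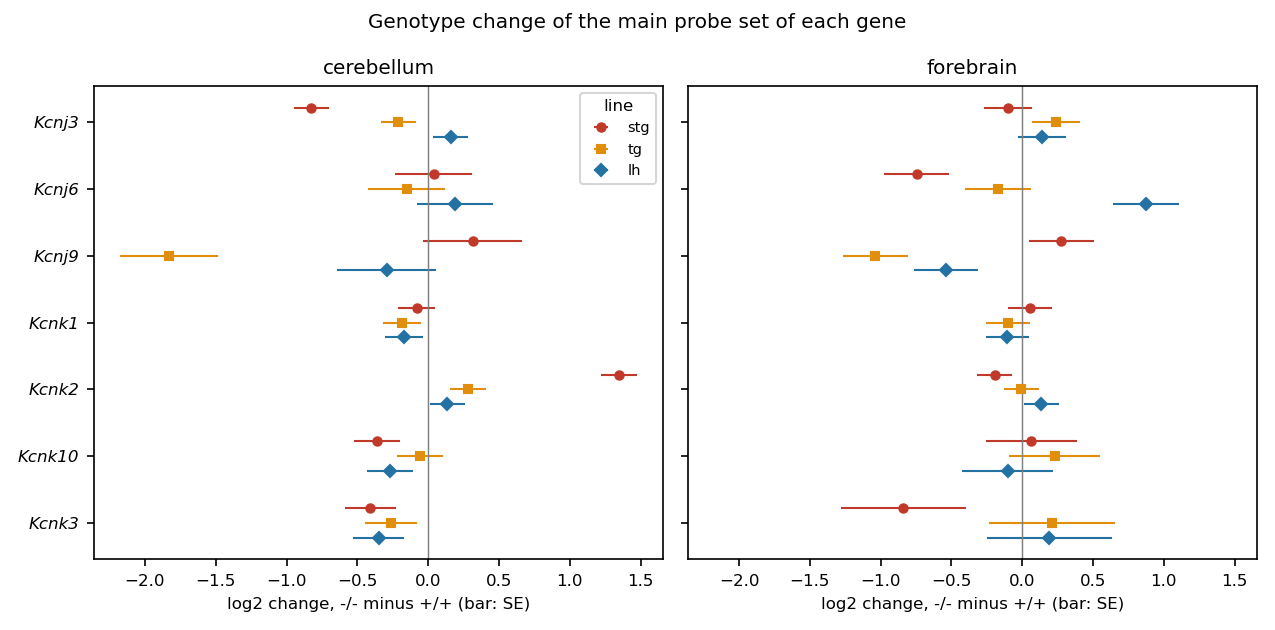
Log2 difference, -/- minus +/+, of the main probe set of each of the 7 genes in stg, tg and lh, in cerebellum (left) and forebrain (right). Points are estimates and bars are standard errors from the fit over 18 arrays of a tissue. Kcnk2 (1.35) and Kcnj3 (-0.82) in stg cerebellum and Kcnj9 (-1.83) in tg cerebellum lie farthest from 0 in the left panel.

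The difference between tissues was also computed in the -/- arrays, a measure that was not itself used to choose the genes. It is not independent of that choice. It equals the +/+ tissue difference plus the mean genotype change in cerebellum minus that in forebrain, and all of these were used. For the members its p-values are therefore a description and no separate test. Of the 15 kept probe sets, 9 were higher and 2 lower in cerebellum than in forebrain, and each of the 7 genes had at least 1 that passed. Of all probe sets 56.6% passed, 31.3% higher and 25.3% lower. The members' median was 0.49 on the log2 scale, against 0.06 over all.

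Kcnk10, Kcnk3 and Kcnk1 were higher in cerebellum. Kcnk10, TREK2, had 168 to 276 with a median of 233 over the 9 -/- cerebellum arrays and 36.3 to 77.7 with a median of 47.6 over the 9 -/- forebrain arrays (log2 difference 2.10, SE 0.15, adjusted p = 1.1e-13). Kcnk3, TASK1, had 126 to 248 with a median of 209 in -/- cerebellum and 10.3 to 82.5 with a median of 65.9 in -/- forebrain (1.81, SE 0.21, adjusted p = 6.28e-09). Kcnk1, TWIK1, had 1893 to 2506 with a median of 2061 in -/- cerebellum and 747 to 1196 with a median of 1005 in -/- forebrain (1.08, SE 0.09, adjusted p = 2.62e-12). None of these ranges overlap between tissues, and the second kept probe set of each gene gave 1.85 for Kcnk10, 2.55 for Kcnk3 and 1.24 for Kcnk1.

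Kcnk2, TREK1, ran the other way. It had 101 to 305 with a median of 142 in -/- cerebellum and 341 to 433 with a median of 377 in -/- forebrain (log2 difference -1.24, SE 0.07, adjusted p = 1.1e-16). Of all probe sets 38.3% passed in stg-/- alone, 33.8% in tg-/- alone and 35.3% in lh-/- alone. By line the Kcnk2 difference was -0.34 in stg-/- (SE 0.11, adjusted p = 0.0191), -1.45 in tg-/- and -1.93 in lh-/- (SE 0.11 each), and in +/+ arrays -1.88, -1.73 and -1.94. The stg-/- cerebellum arrays stand nearest to forebrain levels, and all 3 lie below the 3 stg-/- forebrain arrays.

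The GIRK subunits differed less between tissues. Kcnj6 was higher in -/- cerebellum (0.49, SE 0.15, adjusted p = 0.00486) and Kcnj9 by 1450712_at too (0.49, SE 0.18, adjusted p = 0.0226), with overlapping arrays. The Kcnj9 difference came mainly from lh-/- (1.24, SE 0.32, adjusted p = 0.00261), while stg-/- gave 0.16 and tg-/- 0.08, neither of which passed. Kcnj3 by its main probe set did not pass over the 3 lines (-0.19, SE 0.09, adjusted p = 0.0696). It was lower in stg-/- cerebellum than in stg-/- forebrain (-0.64, SE 0.15, adjusted p = 0.00109). The Kcnj3 probe set 1444025_at did pass as lower over the 3 lines. Its median was 168 in -/- cerebellum and 211 in -/- forebrain, with overlapping arrays. In the +/+ arrays, as a description, 11 of 15 probe sets were higher and 1 lower in cerebellum, where 58.2% of all probe sets passed.

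**Figure D4:**
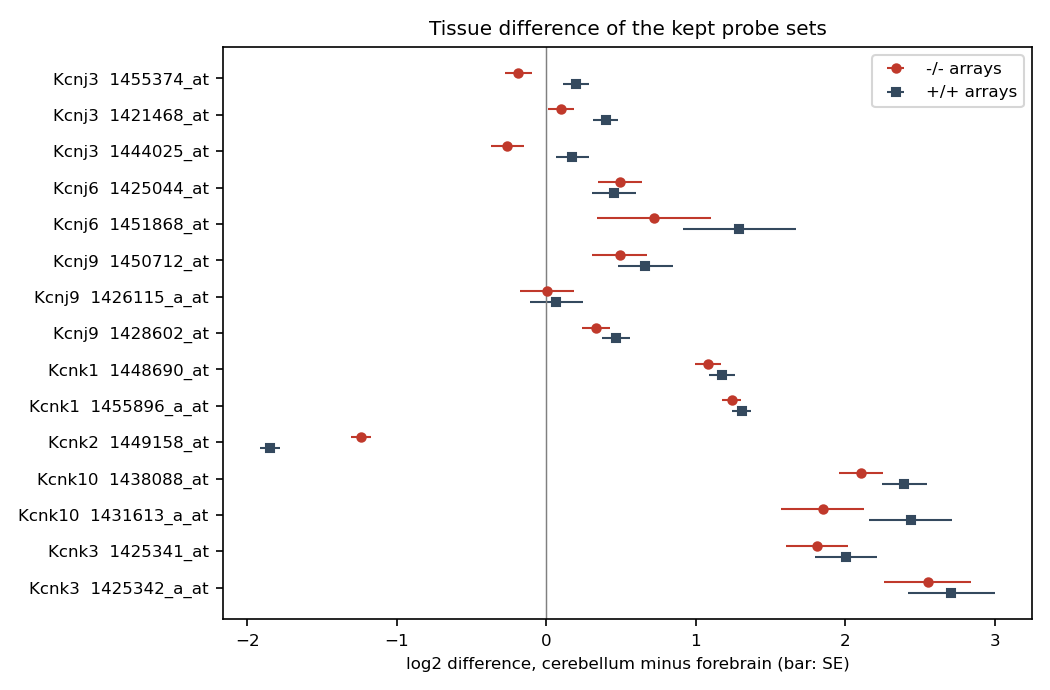
Log2 difference, cerebellum minus forebrain, of the 15 kept probe sets, averaged over the 3 lines, for -/- arrays (red circles) and +/+ arrays (blue squares). Bars are standard errors from the fit over 36 arrays. Kcnk3, Kcnk10 and Kcnk1 lie right of 0 and Kcnk2 left of it in both genotypes, with Kcnk2 at -1.24 in -/- and -1.85 in +/+.

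The rest of the pathway was read from lists of genes. In stg cerebellum, of 6 measured receptors that open GIRK channels, Oprl1, the nociceptin receptor, rose and Grm4, a presynaptic glutamate receptor of granule cells, fell. Oprl1 averaged 190.6 ± 56.6 in stg-/- and 51.8 ± 7.5 in stg+/+ (log2 difference 1.79, SE 0.25, adjusted p = 0.000566). Grm4 averaged 689.7 ± 66.3 in stg-/- and 1087 ± 89.4 in stg+/+ (-0.66, SE 0.12, adjusted p = 0.00553; SD, n = 3 each). None of 22 G proteins and regulators, 11 genes of the Gq pathway and two-pore partners, 6 other inward rectifiers or 3 other two-pore channels passed there.

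In tg cerebellum 2 of 22 G proteins and regulators passed. Gnb1, a G protein beta subunit, averaged 292.6 ± 23.1 in tg-/- and 909.2 ± 216.3 in tg+/+ by 1 of its 2 probe sets (log2 difference -1.60, SE 0.31, adjusted p = 0.0176), and the other gave -0.84. Gng4, a gamma subunit, averaged 180.7 ± 30.8 in tg-/- and 55.5 ± 14.0 in tg+/+ (1.67, SE 0.36, adjusted p = 0.0379). In tg forebrain Gnb1 fell too (-1.002, SE 0.17, adjusted p = 0.0166), as 1 of 24. No receptor, Gq pathway gene, other inward rectifier or other two-pore channel passed in tg, and none of the 5 lists had a called gene in lh or in stg forebrain. Among the +/+ cerebellum groups 1 of these genes differed, Gnai3, an inhibitory G protein alpha subunit.

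The lists were also counted between tissues in the -/- arrays, where 31.3% of all probe sets were higher and 25.3% lower in cerebellum. Of 10 measured receptors, 8 fell and 3 rose in cerebellum relative to forebrain, with Gabbr1 counted in both directions because its probe sets disagree. The log2 difference was -3.20 for Npy1r, -2.86 for Drd2 and -2.84 for Htr1a, and 2.53 for Grm4. Of 24 G proteins and regulators, 9 rose and 12 fell, with 7.29 for Pcp2, a Purkinje cell regulator of Gi/o, and 3.28 for Rgs8, and -4.31 for Rgs4 and -3.36 for Gng4. Of 11 Gq pathway genes 2 rose and 6 fell, with 2.58 for Plcb4 and 2.14 for Plcb3, and -3.13 for Chrm1 and -3.11 for Akap5, an anchoring protein that binds TREK channels. Of 7 other inward rectifiers 2 rose and 2 fell, with 1.74 for Kcnj12 and -3.48 for Kcnj4. Of 3 other two-pore channels Kcnk12 rose (1.51), and Kcnk6 (-0.94) and Kcnk13 (-0.74) fell.

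The genes whose log2 signals ran most like those of the members over the 18 cerebellum arrays are given as a description. The arrays share group differences, so the correlations carry no test. For Kcnk2 they were Sox4 (r = 0.96), Nos1 (0.94), Tspan4, Lrtm2 and Cd47 (0.93 each). For Kcnj3 they were Ttc14 (0.87), Nr3c1 (0.86), Hectd2 (0.85), Ube2w (0.84) and Rnf152 (0.83). For Kcnj9 they were Ifrd1 (0.89), Stmn1 (0.86), Penk, Wdfy1 and Utp18 (0.82 each). In stg cerebellum Sox4 differed by 1.35 and Nos1 by 1.60 on the log2 scale between stg-/- and stg+/+, and in tg cerebellum Wdfy1 by -1.24 between tg-/- and tg+/+.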

How the data were processed

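The deposited values are linear signal intensities, scaled by the authors so that the mean after trimming 2% at each end is 150.0 on every array; this was read from the values, and the software that made the signals is not stated in the labels or files. The members, the gene lists and the tests were chosen with earlier results of these data known. From the deposited table, log2(signal + 2.98) was taken, the constant being the 10th percentile, without the 64 control probe sets. Probe sets above the 40th percentile of mean log2 were kept (27022 of 45101), and no further normalization was applied. Of all probe sets 34958 had 1 symbol, 932 several and 9211 none; only the first were named.

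The tests were made by limma 3.58.1 under R 4.3.3 (a mean per group, empirical Bayes with an intensity trend, two-sided), in fits over the 18 arrays of a tissue or all 36, with Benjamini-Hochberg adjustment over all kept probe sets and a threshold of 0.05. The scripts were tested on simulated data. P-values rest on the spread of arrays within groups, pooled for each probe set over all groups of a fit and moderated. Groups of unlike spread therefore share 1 estimate. With 3 arrays a group precision is limited, and the spread may be partly technical. The named genes are all members, the called genes of each list (at most 4 per contrast), called neighbours within 2 Mb and the 5 genes most correlated with Kcnj3, Kcnj9 and Kcnk2. The main probe set of a gene is the one with the highest mean. Sequences and positions are RefSeq's for GRCm38.p6. Alternatives were other filters, quantile normalization, a constant of 1, no trend, array weights, blocks for the 2 series of records (20 and 16 arrays) and for replicate numbers, the mean over a gene's probe sets, and leaving out arrays. Each tg group has 1 array in the first series and 2 in the second, while each stg and lh group has 2 and 1. Comparisons of tg+/+ with the other control groups are therefore partly mixed with the series.

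Cerebellum replicate numbers come from the labels. Same-numbered -/- and +/+ arrays deviated together in stg (correlations 0.156, 0.188 and 0.380, all over the limit of 0.1). In tg (0.292, 0.040 and 0.244) and lh (0.225, 0.095 and 0.333) 1 pair each fell short. Numbers of forebrain arrays only name them.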

Additional observations from a re-analysis of the deposited data

Results flagged for a closer look

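Kcnj6 (1425044_at) in forebrain stood out because every -/- array lay below every +/+ array in stg (log2 difference -0.75), and every -/- array lay above every +/+ array in lh (0.88). The share of all probe sets without overlap was 7.45% in stg forebrain and 10.7% in lh forebrain. In stg forebrain it was not the lowest difference of the set, which was -0.84. The difference between the lines was not tested.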

How the results depend on the processing

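Counts in the genotype contrasts describe contrasts that chose the genes. The count of 3 member probe sets in stg cerebellum was 2 or 3 under every alternative run, and 2 in all 6 fits without 1 stg array. The replicate block joins same-numbered -/- and +/+ arrays in all 3 lines, although only in stg were all correlations over the limit. It left the stg count at 3, where 3.77% of all probe sets passed, against 1.30% in the main fit. In tg cerebellum the count was 1. It was 0 with no intensity trend, 2 with array weights and 2 with a block for line and record series. The replicate block gave 2 (Kcnj9 by 1450712_at and 1426115_a_at), where 1.59% of all probe sets passed, against 0.574% in the main fit. Without 1 array the count was 0 to 1. It was 0 without tg-/- replicate 3 and without tg+/+ replicate 1 or 2, and the Kcnj9 difference (1450712_at) was -2.16 to -1.65 over the 6. In tg forebrain the count of 0 was 2 with array weights. Among the +/+ groups the cerebellum count of 3 was 1 to 3 without 1 array, 1 without stg+/+ replicate 2. The forebrain count of 1 was 0 without the 3 arrays with pituitary transcripts and 0 to 2 without 1 array (0 without stg+/+ replicate 1, 2 without stg+/+ replicate 2 or tg+/+ replicate 3). For the tissue difference of Kcnj3 in -/- arrays (-0.19, not passed), quantile normalization gave -0.20 and array weights -0.21, both passed, and leaving out 1 array -0.22 to -0.16. That of Kcnj9 was 0.40 to 0.67 without 1 array and did not pass in 5 of 18. For tg+/+ minus the mean of stg+/+ and lh+/+, Kcnj9 kept its direction under every setting but did not pass in the main fit of either tissue. The other 6 genes passed in this comparison under no setting (lowest adjusted p 0.0947). Of 881 alternative values 24 changed sign, none of them of a result past the threshold, in 13 results with log2 differences between -0.20 and 0.28, among them Kcnk2 (-0.20) and Kcnj3 (-0.10) in stg forebrain at 0.13 and 0.03 without the 3 arrays. The causes were not tested.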

Other observations

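Around Kcnj6, 1 of 22 measured genes passed in stg cerebellum and in lh cerebellum: Ets2, an ETS transcription factor, fell by 0.94 in stg and by 0.54 in lh on the log2 scale. Get1 there differed among the +/+ groups in cerebellum (adjusted p = 0.0226). Around Kcnk10, 1 of 14 passed in stg cerebellum, the kinase gene Rps6ka5 (0.46). Around Kcnk3, 3 of 44 differed among the +/+ groups in cerebellum, Abhd1, Drc1 and Selenoi, and Abhd1 also in forebrain. Of the thalamic markers measured in cerebellum, which the cerebellum also expresses, Ntng1 fell in stg (-1.15) and Calb2, also a granule cell gene, fell in lh (-0.89).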
